A study of Homo sapiens with 4 samples.

Results

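The RNAs described here are 34 long noncoding RNAs that are well known from liver cancer and other tumours, 14 of which carry small nucleolar RNAs (snoRNAs) in their introns. They were found by gene name in a table of 58174 genes from LM3 cells, a hepatocellular carcinoma line, and RBE cells, an intrahepatic cholangiocarcinoma line. The 34 names matched 37 table entries, because MALAT1, UCA1 and HULC each have a second, short model, and the long gene was used for each name. In GENCODE release 29, 32 of the 34 are annotated, all as long noncoding gene types, and HULC and CCAT1 were taken with the files' own coordinates. The groups were LM3 given small interfering RNA to FENDRR, itself a long noncoding RNA (si-FENDRR), LM3 with a negative control (si-NC), RBE with si-FENDRR and RBE with si-NC, all transfected by lipofection and taken after 48 h, with 1 library in each. The series asks what FENDRR does to gene expression in primary liver cancer.

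Long noncoding RNAs act as RNA molecules and are not translated into a known protein. Some build or occupy nuclear bodies, as NEAT1 does for paraspeckles and MALAT1 at nuclear speckles, and some bind proteins in the cytoplasm, as NORAD does with the Pumilio proteins. SnoRNA host RNAs are spliced, their introns are trimmed into snoRNAs that guide the chemical modification of ribosomal RNA, and the spliced remainder is in several cases degraded by nonsense-mediated decay. Several hosts start with a run of pyrimidines, the 5' terminal oligopyrimidine (5'TOP) sequence that also opens the mRNAs of ribosomal proteins. Many of these RNAs have been reported at raised levels in liver tumours, while MEG3, an imprinted RNA, is often silenced there.

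The values are FPKM, fragments scaled by gene length and by the mapped fragments of the library, so levels can be compared between genes. The files hold no read counts, so the depth behind each value is unknown and no counting interval is given. FENDRR itself was listed at 0 FPKM in all 4 libraries, so the knockdown could not be checked and the transfections are compared by label. LM3 carried ALB at 35.7 and 33.3 FPKM and AFP at 10.1 and 8.25 FPKM, while RBE had ALB at 0.251 and 0.270 FPKM and AFP listed at 0. Against its label, RBE carried the hepatocyte gene SERPINA1 at 56.8 and 82.5 FPKM, where LM3 had 0.0957 and 0.0892 FPKM, and the 10 hepatocyte markers summed to 103 and 98.4 FPKM in LM3 and to 80.5 and 109 FPKM in RBE. RBE carried KRT7 at 429 and 391 FPKM, against 7.21 and 6.02 FPKM in LM3. SPP1, the highest of the 10 cholangiocyte markers, went the other way, at 1118 and 909 FPKM in LM3, against 515 and 504 FPKM in RBE. The 10 cholangiocyte markers summed to 1291 and 1106 FPKM in LM3 and to 1564 and 1506 FPKM in RBE. The marker lists were not clean: 5 of 10 hepatocyte markers reached 1 FPKM in LM3 and 6 of 10 in RBE, and APOA1 and APOB stayed under 1 FPKM in all 4 libraries. Of 10 cholangiocyte markers, 5 reached 1 FPKM in LM3 and 9 in RBE. Of the markers of other cells, that level was reached by 1 of 3 endothelial markers in LM3 and 0 in RBE, by 0 of 4 fibroblast markers in LM3 and 2 in RBE, and by 1 of 4 leukocyte markers in LM3 and 2 in RBE, with PTPRC at 0 in LM3. The part of such cells in the results was not tested.

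Of the 34 RNAs, 29 reached 1 FPKM in at least 1 library and entered the tests. HULC, named for its upregulation in liver cancer, and MEG3 were listed at 0 in all 4 libraries. MIAT was at 0.0169 FPKM under si-FENDRR and 0.00391 FPKM under si-NC in LM3 and, in RBE, 0.00328 and 0.000544 FPKM. MIATNB, which shares exon bases with MIAT on its strand, was at 1.40 and 2.36 FPKM in LM3 and, in RBE, 2.77 and 2.71 FPKM. How reads were split between these models was not tested. KCNQ1OT1, the antisense RNA that silences an imprinted domain, was between 0.118 and 0.143 FPKM in the 4 libraries. HOTAIR, from the HOXC cluster, was at 0.677 and 0.694 FPKM in LM3 and, in RBE, 0 and 0.0475 FPKM.

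The order of levels differed between the lines, with 2 snoRNA hosts among the leading 5 RNAs in LM3 and 4 in RBE. In LM3 the leading RNA was SNHG6, at 167 FPKM under si-FENDRR and 196 FPKM under si-NC, followed by MALAT1, PVT1, CYTOR and GAS5. In RBE the leading pair was GAS5, at 207 FPKM under si-FENDRR and 230.3 FPKM under si-NC, and SNHG5, at 218 and 217 FPKM. In RBE these 2 neighbours in the order overlapped in their values, and CYTOR followed at 116 and 110.5 FPKM. Summed over the 14 hosts, the level was 460.3 FPKM under si-FENDRR and 502 FPKM under si-NC in LM3 and, in RBE, 874 and 866 FPKM.

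**Figure D1:**
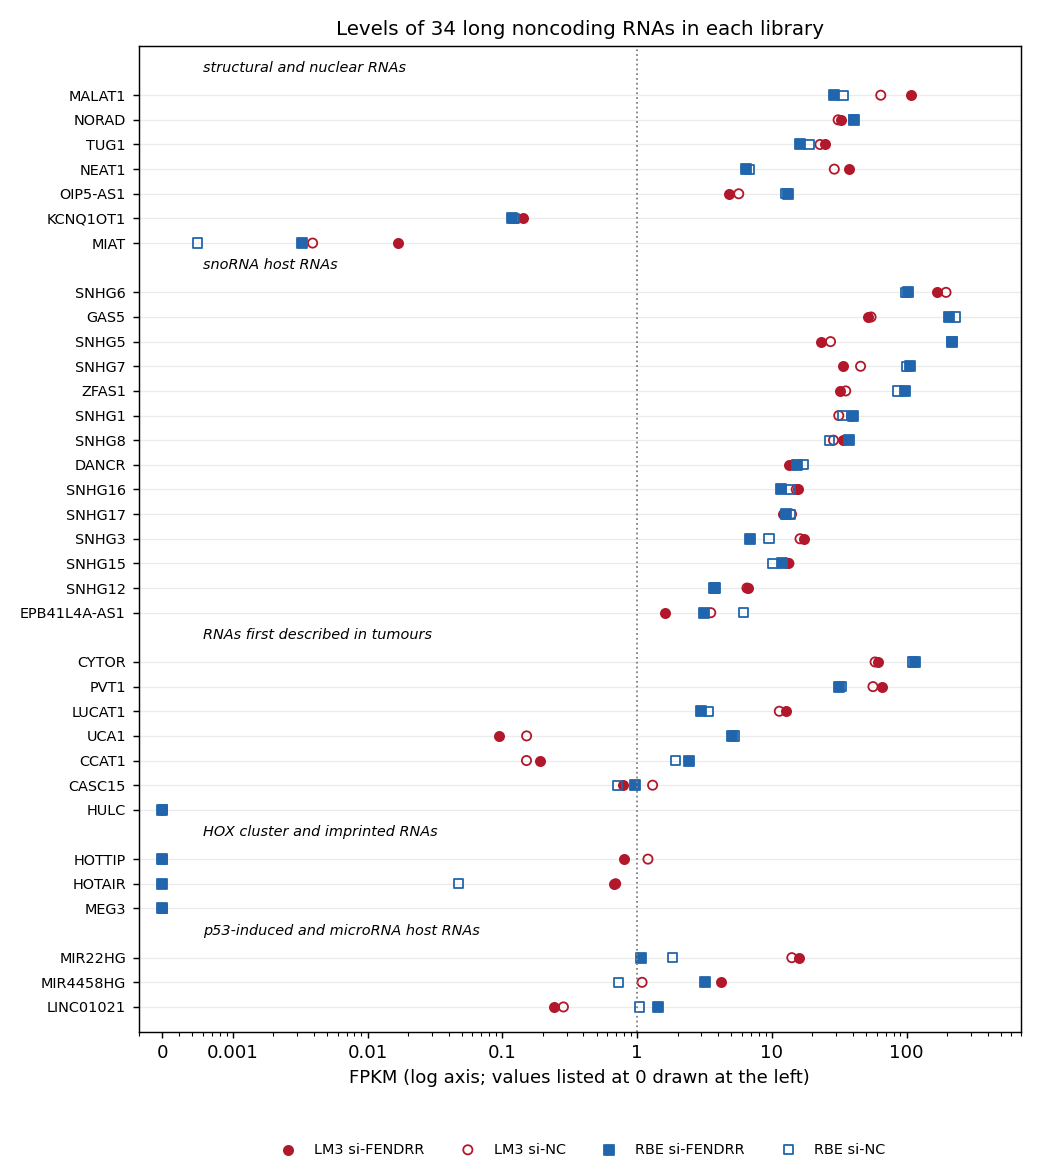
FPKM of each of the 34 RNAs in the 4 libraries, on a log axis, grouped by role and ordered by mean level within a role; filled symbols are si-FENDRR, open symbols si-NC, circles LM3 and squares RBE. Symbols of the same shape lie close together for most RNAs, whereas circles and squares part for SNHG5, GAS5, UCA1, NEAT1 and MIR22HG, and the 5 RNAs left of the dotted line at 1 FPKM in every library did not enter the tests.

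The first comparison, si-FENDRR against si-NC, addresses the effect of the transfection. None of the 29 RNAs was called over both lines by limma at an adjusted p under 0.05, where 0% of the 15930 tested genes were called. In LM3 the median size of the difference was 0.16 on the log2(FPKM + 1) scale over the 29 RNAs and 0.15 over all tested genes, and in RBE it was 0.16 and 0.14. Of the 29 RNAs, 7 were higher under si-FENDRR in each line, against 26.9% of all tested genes. Another 5 were lower in both lines, against 21.8% of all tested genes, 16 went opposite ways, and HOTTIP was listed at 0 in both RBE libraries. Both shares, 24.1% and 17.2%, were near or under the background. The lines served as the 2 replicates of the transfection, which left 1 residual degree of freedom. The SE given with each log2 difference is that of limma, which draws the variance of a gene toward that of all tested genes. It is thus not the spread of the values of that RNA alone. An unadjusted p under 0.05 was reached by 2 of the 29 RNAs, MIR4458HG and EPB41L4A-AS1, and by 4.12% of all tested genes.

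MIR4458HG, the host RNA of the microRNA miR-4458, had the largest difference of the 29. It lies on chromosome 5 at 8450743 to 8463095 on the plus strand of hg38. The level was 4.22 FPKM under si-FENDRR and 1.09 FPKM under si-NC in LM3, and 3.20 FPKM under si-FENDRR and 0.729 FPKM under si-NC in RBE. Both si-FENDRR libraries were above both si-NC libraries, by ratios of 3.87 in LM3 and 4.39 in RBE. The log2 difference over both lines was 1.30 ± 0.14 (SE, n = 2 lines), and it missed the threshold (adjusted p = 0.783 by limma). Within each line it was the only one of the 29 whose FPKM + 1 differed at least 2-fold, where 2.13% of all tested genes did so in LM3 and 1.75% in RBE. With a pseudocount of 5 it stayed under 2-fold in both lines, since the log2(FPKM + 1) scale and its like understate differences of low RNAs. The genes on the other strand that share exon bases with it, AC091965.1 and LINC02226, were listed at 0 in all 4 libraries. An earlier analysis of these libraries had already named it among the higher genes, so its place here is a description.

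The mature microRNA itself was not measured by these mRNA libraries, and the MIR4458 model inside the host was listed at 0 in 3 libraries and at 0.0123 FPKM in RBE with si-NC. Its RefSeq sequence on GRCh38.p14 is shown with that of let-7a, a tumour-suppressive microRNA, because both carry the same seed, the bases 2 to 8 that pair with target mRNAs. Capitals mark the seed.
hsa-miR-4458 (chr5:8460933-8460951, plus strand): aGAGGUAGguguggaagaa
hsa-let-7a-5p (chr9:94175962-94175983, plus strand): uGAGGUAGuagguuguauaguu
This seed was held by 11 mature names in RefSeq, miR-4458 and 8 let-7 names among them.

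EPB41L4A-AS1, a snoRNA host on the strand opposite to EPB41L4A, had the largest difference in the other direction. It lies on chromosome 5 at 112160526 to 112164276 on the plus strand. Its level was 1.61 FPKM under si-FENDRR and 3.52 FPKM under si-NC in LM3, and 3.15 FPKM under si-FENDRR and 6.19 FPKM under si-NC in RBE. The si-FENDRR level was lower in both lines, at ratios of 0.457 in LM3 and 0.508 in RBE, and only with a pseudocount of 0.1 did it pass 2-fold in LM3, although the RBE si-FENDRR library still reached nearly the LM3 si-NC value. The log2 difference was -0.79 ± 0.13 (SE, n = 2 lines; adjusted p = 0.959 by limma), which missed the threshold. EPB41L4A, which shares exon bases on the other strand, was at 0.0660 FPKM with si-FENDRR and 0 with si-NC in LM3 and, in RBE, 3.31 and 4.31 FPKM. The snoRNA SNORA13 in its intron was at 1.52 FPKM under si-FENDRR and 1.14 FPKM under si-NC in LM3 and, in RBE, 0.269 and 0.448 FPKM.

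Next in each direction came snoRNA hosts with smaller shifts, SNHG8 and SNHG1 among the higher and SNHG7 and SNHG3 among the lower, while MALAT1 at 0.26 ranked just under SNHG1. SNHG8 was at 33.5 FPKM under si-FENDRR and 28.7 FPKM under si-NC in LM3 and, in RBE, 37.2 and 26.7 FPKM (0.34 ± 0.13 SE as the log2 difference, n = 2 lines, adjusted p = 0.959 by limma). SNHG1, which hosts a cluster of box C/D snoRNAs, was at 38.5 FPKM under si-FENDRR and 31.4 FPKM under si-NC in LM3 and, in RBE, 40.1 and 33.5 FPKM (0.27 ± 0.11 SE, adjusted p = 0.959 by limma). Both were higher with si-FENDRR in each line, and neither passed. SNHG7 was at 33.9 FPKM under si-FENDRR and 45.5 FPKM under si-NC in LM3 and, in RBE, 106 and 99.7 FPKM (-0.16 ± 0.16 SE, adjusted p = 0.964 by limma). SNHG3 was at 17.4 FPKM under si-FENDRR and 16.2 FPKM under si-NC in LM3 and, in RBE, 6.92 and 9.52 FPKM (-0.16 ± 0.17 SE, adjusted p = 0.965 by limma). The signs of SNHG7 and SNHG3 were opposite in the 2 lines.

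Among the structural RNAs, MALAT1 was at 108 FPKM under si-FENDRR and 64.3 FPKM under si-NC in LM3 and, in RBE, 28.8 and 33.7 FPKM. NEAT1, the scaffold of paraspeckles, was at 37.5 FPKM under si-FENDRR and 29.1 FPKM under si-NC in LM3 and, in RBE, 6.38 and 6.79 FPKM. Both were higher with si-FENDRR in LM3 alone. MALAT1 ends in a triple helix and not in a poly(A) tail, and how the mRNA kit captured it was not tested. NORAD was at 32.8 and 31.0 FPKM in LM3 and, in RBE, 40.6 and 40.1 FPKM. TUG1 was at 24.7 FPKM under si-FENDRR and 22.8 FPKM under si-NC in LM3 and, in RBE, 16.1 and 18.9 FPKM. For NORAD the 2 libraries of a line were nearly equal.

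Differences were small for many of the rest, and 9 of the 29 differed by under 0.2 on the log2 scale in both lines. GAS5, which is known to bind the glucocorticoid receptor, was at 52.1 FPKM under si-FENDRR and 54.5 FPKM under si-NC in LM3. CYTOR was at 61.1 FPKM under si-FENDRR and 58.3 FPKM under si-NC in LM3. PVT1, the neighbour of MYC, was at 65.1 FPKM under si-FENDRR and 56.3 FPKM under si-NC in LM3 and, in RBE, 31.5 and 32.8 FPKM. For PVT1 the signs were opposite in the 2 lines. CASC15 lay near the lower limit of the tests, at 0.790 FPKM under si-FENDRR and 1.30 FPKM under si-NC in LM3 and, in RBE, 0.963 and 0.719 FPKM. DANCR, a host RNA that restrains differentiation of progenitor cells, was at 13.3 FPKM under si-FENDRR and 14.5 FPKM under si-NC in LM3 and, in RBE, 15.3 and 17.3 FPKM. The hosts SNHG12, SNHG15, SNHG16 and SNHG17 ranged from 3.72 to 15.6 FPKM over the 4 libraries. For SNHG12 the signs in both lines, for SNHG16 the sign in LM3, and for SNHG5, NORAD and OIP5-AS1 the sign in RBE flipped with another scaling of the libraries.

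**Figure D2:**
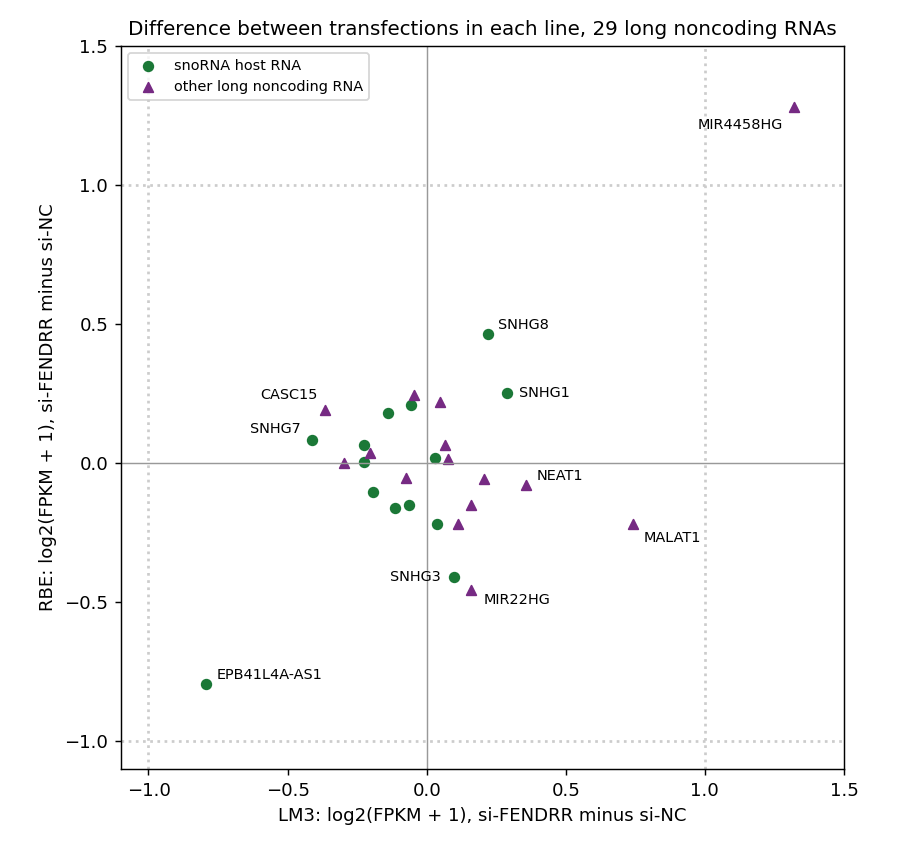
Difference in log2(FPKM + 1) between si-FENDRR and si-NC in LM3 (horizontal) and RBE (vertical) for the 29 tested RNAs, with green circles for snoRNA hosts and purple triangles for the rest; dotted lines mark a 2-fold difference of FPKM + 1. MIR4458HG stands alone beyond 2-fold in both lines at 1.32 and 1.28, EPB41L4A-AS1 is at -0.79 in both, and MALAT1 is at 0.74 in LM3 and -0.22 in RBE.

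The second comparison, LM3 against RBE, gave far larger differences. Of the 29 RNAs, 19 were called by limma, where 58.7% of the 15930 tested genes were called. LM3 was higher in 9 (32.3% of all tested genes) and RBE in 10 (26.4% of all tested genes). The share of called RNAs, 65.5%, was close to the background and to the 61.5% of 1672 tested long noncoding genes. UCA1, CCAT1 and LINC01021 reached 1 FPKM in RBE only, HOTTIP in LM3 only and CASC15 in the LM3 si-NC library only, so the filter let them in where they are high and these counts are a description. Within a line the 2 libraries had different transfections, and the labels name no separate cultures, so the spread behind these tests may be technical. The median size of the line difference was 0.89 on the log2(FPKM + 1) scale over the 29 RNAs and 0.65 over all tested genes.

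On the log2(FPKM + 1) scale SNHG5 had the largest difference toward RBE, but UCA1 passed it with a pseudocount of 0.1, at -4.57 against -3.11, and with library totals as the scaling, at -3.17 against -3.06. That scaling also raised all values before 1 was added, so it acts in part as a smaller pseudocount. By the ratio of means, too, UCA1 and CCAT1 were above SNHG5, at 41.9 and 12.8 against 8.62. SNHG5, which hosts SNORD50 snoRNAs, was at 23.2 and 27.3 FPKM in LM3 with si-FENDRR and si-NC, against 218 and 217 FPKM in RBE (log2 difference, LM3 minus RBE, -3.06 ± 0.12 SE, n = 2 libraries per line, adjusted p = 0.000873 by limma). GAS5 was at 52.1 and 54.5 FPKM in LM3, against 207 and 230.3 FPKM in RBE (-2.02 ± 0.10 SE, adjusted p = 0.0013 by limma). Their RBE means were 8.62 and 4.11 times the LM3 means, and the libraries of the lines did not overlap. ZFAS1, antisense to the start of ZNFX1, was at 32.0 and 35.3 FPKM in LM3, against 98.1 and 86.4 FPKM in RBE (-1.43 ± 0.13 SE, adjusted p = 0.00342 by limma). SNHG7 was at 33.9 and 45.5 FPKM in LM3, against 106 and 99.7 FPKM in RBE (-1.36 ± 0.16 SE, adjusted p = 0.00568 by limma). For both, genes on the other strand that share exon bases also had higher values in RBE. ZNFX1 was at 4.37 and 4.10 FPKM in LM3, against 12.1 and 13.0 FPKM in RBE, and FAM69B was at 0.217 and 0.219 FPKM in LM3, against 27.3 and 23.9 FPKM in RBE. No source used here gives the strand setting of the libraries, and the part of these partners in the result was not tested.

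Not all hosts were higher in RBE. Of the 14 hosts, 3 were called higher in LM3 and 5 higher in RBE, where 32.3% and 26.4% of all tested genes were. EPB41L4A-AS1, the fifth in RBE, lost its call with no transfection term (adjusted p = 0.204 by limma). SNHG6 was at 167 and 196 FPKM in LM3, against 102 and 97.5 FPKM in RBE. SNHG3, which shares exon bases with RCC1 on its strand, was at 17.4 and 16.2 FPKM in LM3, against 6.92 and 9.52 FPKM in RBE (0.96 ± 0.17 SE, adjusted p = 0.0144 by limma). RCC1 was at 21.1 and 23.4 FPKM in LM3, against 9.52 and 8.26 FPKM in RBE, so reads could have been split between the models, which was not tested. SNHG12 was at 6.69 and 6.54 FPKM in LM3, against 3.78 and 3.72 FPKM in RBE. The remaining 6 hosts were not called. Over the 14 hosts the median log2 difference was -0.05, against 0.09 over all tested genes.

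The starts of the host transcripts are shown because some annotated transcripts of these hosts open with a run of pyrimidines. The stretches are the first 30 bases of 1 annotated GENCODE 29 transcript per gene on GRCh38, and capitals mark the unbroken run of C and T from the first base.
GAS5 (chr1:173867960-173867989, minus strand): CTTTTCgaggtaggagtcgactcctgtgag
SNHG5 (chr6:85678704-85678733, minus strand): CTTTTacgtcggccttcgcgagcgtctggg
ZFAS1 (chr20:49278642-49278671, plus strand): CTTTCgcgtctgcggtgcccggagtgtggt
SNHG7 (chr9:136728155-136728184, minus strand): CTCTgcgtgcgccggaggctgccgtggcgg
A 5'TOP-like start was searched on the transcript's strand as a C followed by at least 4 bases that are each C or T. At least 1 annotated transcript of 9 of the 14 hosts (64.3%) began so, against 15.4% of the genes that passed the filter and 58.5% of 82 ribosomal protein genes. For the ribosomal protein genes only coding transcripts were searched, so these shares rest on unlike sets. Counted over transcripts, which a gene with many models weights, it was 15.4% of 156 host transcripts and 2.62% of all transcripts. Of 452 coding transcripts of the ribosomal protein genes, it was 19.5%. A matching start was found in 6 of 29 GAS5 transcripts, 3 of 23 SNHG5 transcripts and 3 of 10 ZFAS1 transcripts, and in 3 of 5 SNHG6 transcripts, 1 of 3 SNHG3 transcripts and 4 of 17 SNHG12 transcripts. SNHG7, with a run of 4 pyrimidines, did not match, and no transcript of DANCR, EPB41L4A-AS1, SNHG15 or SNHG17 did.

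RNAs with a more restricted pattern also parted the lines. UCA1, first described in bladder carcinoma, was at 0.0938 and 0.151 FPKM in LM3, against 5.03 and 5.25 FPKM in RBE. CCAT1, named for colon cancer, was at 0.190 and 0.151 FPKM in LM3, against 2.42 and 1.94 FPKM in RBE. Both were under 0.2 FPKM in the LM3 libraries, and the RBE mean of UCA1 was 41.9 times its LM3 mean. LINC01021, a p53-induced RNA also called PURPL, was at 0.244 and 0.284 FPKM in LM3, against 1.42 and 1.05 FPKM in RBE. These 3 RNAs entered through RBE, so their differences are given with no test. CYTOR was at 61.1 and 58.3 FPKM in LM3, against 116 and 110.5 FPKM in RBE, and OIP5-AS1 was at 4.81 and 5.68 FPKM in LM3, against 13.1 and 12.7 FPKM in RBE. Both were called higher in RBE.

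On the log2(FPKM + 1) scale MIR22HG had the largest difference toward LM3, although HOTTIP passed it with a pseudocount of 0.1, at 3.43 against 3.32. This host RNA of miR-22 lies on chromosome 17 at 1711493 to 1717174 on the minus strand. It was at 15.8 and 14.1 FPKM in LM3 with si-FENDRR and si-NC, against 1.07 and 1.84 FPKM in RBE (2.72 ± 0.20 SE, n = 2 libraries per line, adjusted p = 0.0022 by limma). Its LM3 mean was 10.3 times its RBE mean. NEAT1 was at 37.5 and 29.1 FPKM in LM3, against 6.38 and 6.79 FPKM in RBE (2.17 ± 0.16 SE, adjusted p = 0.00222 by limma). LUCAT1, an RNA induced by the stress factor NRF2, was at 12.8 and 11.4 FPKM in LM3, against 2.96 and 3.39 FPKM in RBE (1.65 ± 0.14 SE, adjusted p = 0.00305 by limma). MALAT1 followed at 108 and 64.3 FPKM in LM3, against 28.8 and 33.7 FPKM in RBE (1.39 ± 0.27 SE, adjusted p = 0.0166 by limma). NEAT1 and MALAT1 lie in the same region of chromosome 11, and the 2 LM3 libraries of MALAT1 lay further apart than those of NEAT1.

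The HOX-linked RNA HOTTIP was at 0.793 and 1.20 FPKM in LM3 and listed at 0 in both RBE libraries, which gives no fold, and it entered through LM3, so no test is given. Its partner HOXA13, on the other strand with shared exon bases, was at 1.36 and 1.34 FPKM in LM3 and listed at 0 in RBE, and its part in the result was not tested. PVT1, SNHG6 and SNHG12 completed the 9 RNAs called higher in LM3. Not called were TUG1, SNHG15, SNHG16, SNHG17, SNHG1, SNHG8, DANCR, NORAD, CASC15 and MIR4458HG. SNHG1, at 38.5 and 31.4 FPKM in LM3, against 40.1 and 33.5 FPKM in RBE, and SNHG17, at 12.1 and 13.99 FPKM in LM3, against 12.7 and 13.7 FPKM in RBE, overlapped between the lines. SNHG15 was at 12.8 and 13.4 FPKM in LM3, against 11.9 and 10.2 FPKM in RBE, and SNHG16 was at 15.6 and 15.2 FPKM in LM3, against 11.7 and 13.8 FPKM in RBE.

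**Figure D3:**
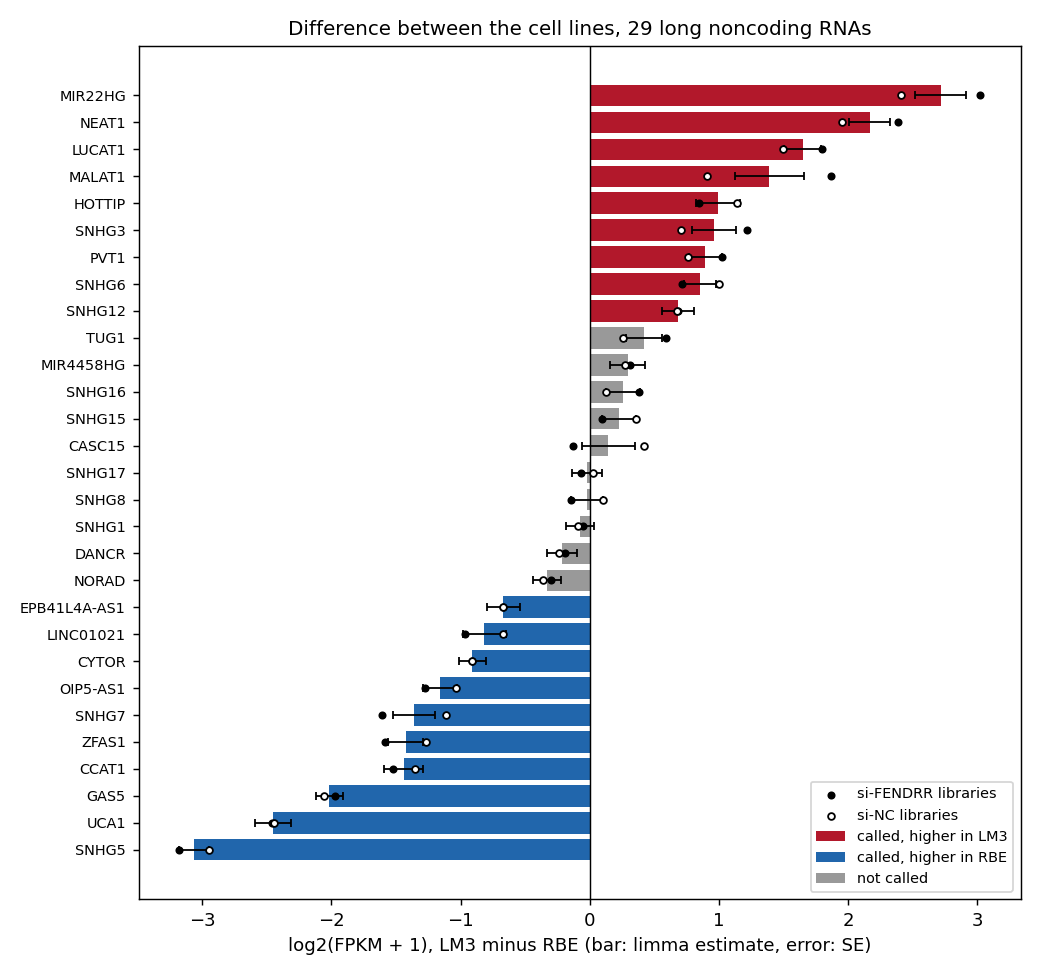
LM3 minus RBE in log2(FPKM + 1) for the 29 tested RNAs, with bars and standard errors from limma and points for the difference within the si-FENDRR pair and the si-NC pair of libraries. Red and blue bars are the 9 and 10 RNAs called higher in LM3 and in RBE, from MIR22HG at 2.72 down to SNHG5 at -3.06, and for the called RNAs both points lie on the same side of 0.

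The small RNAs inside these hosts could be compared with the host RNAs, which share the gene but not the mature product. Inside the 34 genes, on the same strand, lay 45 annotated snoRNA and microRNA models, of which 24 reached 1 FPKM in at least 1 library and none exceeded 15.5 FPKM. An mRNA kit does not capture mature small RNAs as such, and these short models, 29 of which overlap an exon of an annotated host transcript, can take reads of the host. Among the 24, FPKM + 1 differed at least 2-fold between the transfections in 8 in LM3 and 2 in RBE, 33.3% and 8.33%, against 16.3% and 10.6% of the 245 tested small RNA models of the whole table. Several of these models, MIR22, SNORA17 and MIR1206 among them, reached 1 FPKM in a single library, and SNORA61 only under si-FENDRR. The filter let them in where they are high, so these counts and shares are a description.

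SNORA61, an H/ACA box snoRNA inside SNHG12, had the largest difference toward si-FENDRR of the 45 in both lines. It was at 7.72 FPKM under si-FENDRR and 0.110 FPKM under si-NC in LM3, and at 2.24 FPKM under si-FENDRR and 0.0919 FPKM under si-NC in RBE. The host was at nearly equal levels, at 6.69 FPKM under si-FENDRR and 6.54 FPKM under si-NC in LM3 and, in RBE, 3.78 and 3.72 FPKM. Its GENCODE 29 sequence on GRCh38 is shown because the model is only 130 bases long and lies over an exon of the host, with the ACA box, 3 bases from the 3' end, in capitals.
SNORA61 (chr1:28579764-28579893, minus strand): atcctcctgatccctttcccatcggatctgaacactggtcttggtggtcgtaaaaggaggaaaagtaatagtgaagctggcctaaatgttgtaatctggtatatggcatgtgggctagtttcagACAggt

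MIR22, the microRNA model in an exon of MIR22HG, went the other way in LM3. It was at 0.104 FPKM under si-FENDRR and 11.02 FPKM under si-NC in LM3 and, in RBE, 0.0731 and 0.0832 FPKM. MIR22HG was at 15.8 FPKM under si-FENDRR and 14.1 FPKM under si-NC in LM3, so the model and its host parted. Both mature arms come from this hairpin on GRCh38.p14 of RefSeq, and capitals mark the seed.
hsa-miR-22-3p (chr17:1713914-1713935, minus strand): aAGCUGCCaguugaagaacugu
hsa-miR-22-5p (chr17:1713952-1713973, minus strand): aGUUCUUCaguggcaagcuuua
In LM3, a second SNORD22 model inside SNHG1 (ENSG00000277194) was at 0.138 FPKM under si-FENDRR and 7.67 FPKM under si-NC, and SNORA17 inside SNHG7 was at 0.201 and 7.14 FPKM. In RBE that SNORD22 model was at 0.156 and 0.786 FPKM and SNORA17 at 0.0833 and 0.0644 FPKM. These models stood near 0.1 FPKM in some libraries and several FPKM in others, whereas in LM3 the ratios of si-FENDRR over si-NC were 1.13 for MIR22HG, 1.23 for SNHG1 and 0.746 for SNHG7. SNORA17A, a model over nearly the same bases as SNORA17, was listed at 0 in LM3 and at no more than 2e-06 FPKM in RBE. Such twin models were counted separately among the 45, and how reads were shared between them was not tested.

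In LM3, SNORA71C of SNHG17 was at 4.12 FPKM under si-FENDRR and 1.38 FPKM under si-NC, and MIR1206 of PVT1 was at 3.24 and 0.638 FPKM. SNORA73B, inside an intron of SNHG3, had the highest level of the 45, at 15.5 FPKM under si-FENDRR and 11.7 FPKM under si-NC in LM3 and, in RBE, 5.14 and 4.44 FPKM. The first SNORD22 model (ENSG00000278527) was at 8.18 and 6.83 FPKM in LM3 and, in RBE, 3.31 and 2.30 FPKM. SNORD87, inside SNHG6, was at 7.80 and 7.02 FPKM in LM3 and, in RBE, 1.24 and 0.0633 FPKM. With SNORA61 it made up the 2 models that differed at least 2-fold in RBE. SNORA24, inside SNHG8, was at 6.18 and 5.73 FPKM in LM3 and, in RBE, 1.71 and 0.948 FPKM. The remaining models of the 20 with the highest means were SNORD12, SNORD12B and SNORD12C of ZFAS1, SNORD26 and SNORD30 of SNHG1, SNORA71A, SNORA71B and SNORA71C of SNHG17, SNORD99 of SNHG12, SNORA17B of SNHG7, SNORA26 of DANCR and MIR1206 of PVT1, and none of them exceeded 8.14 FPKM.

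**Figure D4:**
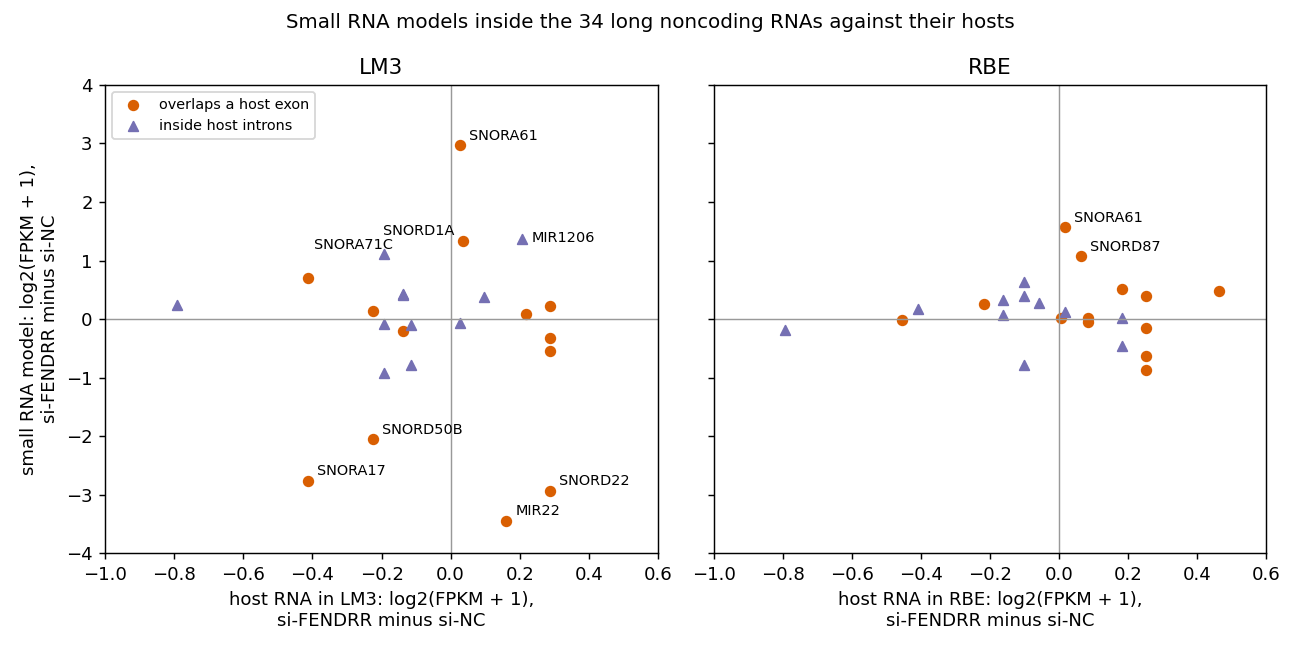
Difference in log2(FPKM + 1) between si-FENDRR and si-NC for the 24 small RNA models that reached 1 FPKM (vertical) against that of their host RNA (horizontal), in LM3 and RBE; orange circles overlap a host exon and violet triangles lie inside introns. The models spread far more widely than their hosts in LM3, where MIR22 reaches -3.45 and SNORA61 2.97.

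Genes that work with these RNAs were looked at from 8 lists, none of which had a member called between the transfections by limma. The lowest gene of the decay list was GSPT1, a translation release factor, at 22.8 FPKM under si-FENDRR and 65.5 FPKM under si-NC in LM3 and, in RBE, 39.3 and 128.6 FPKM (-1.58 ± 0.12 SE, n = 2 lines, adjusted p = 0.533 by limma). Of 22 factors of nonsense-mediated decay, 8 were higher under si-FENDRR in each line and 6 lower, where 26.9% and 21.8% of all tested genes were. SMG8, a regulator of the kinase SMG1, was at 7.40 FPKM under si-FENDRR and 2.81 FPKM under si-NC in LM3 and, in RBE, 8.47 and 4.02 FPKM (1.03 ± 0.14 SE, n = 2 lines, adjusted p = 0.959 by limma). MAGOHB of the exon junction complex was at 20.6 FPKM under si-FENDRR and 9.60 FPKM under si-NC in LM3 and, in RBE, 8.10 and 5.39 FPKM. DCP2, an mRNA decapping enzyme, was at 3.66 FPKM under si-FENDRR and 2.96 FPKM under si-NC in LM3 and, in RBE, 2.62 and 5.83 FPKM. None of these 4 passed. Of 14 paraspeckle proteins, 5 were higher in each line and 2 lower. CPSF6, a subunit of the mRNA cleavage machinery, was at 12.9 FPKM under si-FENDRR and 9.93 FPKM under si-NC in LM3 and, in RBE, 13.6 and 8.70 FPKM, and DAZAP1 was at 58.5 and 80.8 FPKM in LM3 and, in RBE, 49.2 and 59.9 FPKM. Of 16 snoRNP proteins, 6 were higher in each line and 3 lower, of 18 translation factors with 5'TOP mRNAs 5 and 5, of 8 NORAD-binding proteins 5 and 2, and of 9 tested protein genes next to the 34 RNAs 2 and 0. Of 14 other tested snoRNA hosts 6 were higher in each line and 2 lower, and of 23 other tested cancer RNAs 6 and 4.

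Between the lines, the list of translation factors was one-sided in its calls. Its 5'TOP label comes from the choice of the list, and the starts of its transcripts were not searched. Of 18 translation factors with 5'TOP mRNAs, 14 were called higher in RBE and 0 higher in LM3, where 26.4% and 32.3% of all tested genes were. Their median log2 difference was -0.71. PABPC1 went the other way, at 586 and 744 FPKM in LM3, against 466 and 357 FPKM in RBE. Its log2 difference was 0.69 ± 0.21 (SE, n = 2 libraries per line), and it missed the threshold (adjusted p = 0.0504 by limma). EEF1B2, a subunit of the translation elongation factor complex, was at 103 and 119 FPKM in LM3, against 456 and 484 FPKM in RBE (-2.08 ± 0.10 SE, n = 2 libraries per line, adjusted p = 0.00125 by limma), and TPT1 was at 66.8 and 62.1 FPKM in LM3, against 447 and 893 FPKM in RBE. Of the 14 other tested snoRNA hosts, 5 were called higher in RBE and 2 in LM3, with SNHG29 at 156 and 172 FPKM in LM3, against 559 and 518 FPKM in RBE, and SNHG9 at 15.1 and 12.8 FPKM in LM3, against 2.99 and 2.54 FPKM in RBE.

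The called counts of the other lists are read against the same background, 32.3% of all tested genes higher in LM3 and 26.4% higher in RBE. Of the 14 paraspeckle proteins, 2 were called higher in each line. PSPC1, a core paraspeckle protein, was at 10.1 and 10.3 FPKM in LM3, against 19.3 and 18.7 FPKM in RBE (-0.83 ± 0.12 SE, n = 2 libraries per line, adjusted p = 0.00782 by limma), the reverse of NEAT1. Of 22 decay factors, 7 were called higher in LM3 and 4 in RBE. GSPT2, a close relative of GSPT1, was at 8.84 and 8.24 FPKM in LM3 and listed at 0 in RBE, and MAGOH was at 53.7 and 42.3 FPKM in LM3, against 13.3 and 12.4 FPKM in RBE. Of 16 snoRNP proteins, 5 were called higher in LM3, NOP58 among them at 46.1 and 39.6 FPKM against 22.3 and 18.9 FPKM in RBE, and 3 in RBE. Of 8 NORAD-binding proteins, 2 were called higher in each line, with PUM2 at 5.92 and 5.34 FPKM in LM3, against 13.998 and 10.4 FPKM in RBE. Of 9 tested neighbours, 4 were called higher in LM3 and 2 in RBE. GSPT2 and the neighbour HOXA13 reached 1 FPKM in LM3 only, and the neighbour EPB41L4A in RBE only, so the counts that hold them are a description. MYC, next to PVT1 and CCAT1, was at 12.8 and 6.04 FPKM in LM3, against 3.07 and 2.30 FPKM in RBE, the direction of PVT1 and the reverse of CCAT1.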

How the data were processed

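The deposited values are FPKM, per the file headers, in 1 table of 58174 genes and 4 single-library files that hold the same values. The submitters' processing notes name FastQC, HISAT2 and the build hg38. No source used here gives the program that computed FPKM, its annotation or its treatment of shared reads. Low values of single-exon genes lay within 0.05 of whole multiples of 1 step in only 17.7% to 23.8% of cases, so no reads were recovered. FPKM went into limma 3.58.1 (R 4.3.3) as log2(FPKM + 1), over 15930 genes with at least 1 FPKM in any library, with terms for line and transfection, a trended prior variance and Benjamini-Hochberg adjustment over all tested genes. The test was checked on simulated data with independent noise from its own fitted variances and transfection changes of equal size in both lines. That check cannot show how the test does where the lines respond differently. The si-FENDRR and si-NC libraries of a line were paired by cell line, per the labels. Overlaps and transcript starts came from GENCODE 29, in which 96.9% of matched genes had the files' coordinates. The 34 RNAs and all lists were chosen with earlier results of these data known. All 34 are named, with tests given for the 3 largest differences per direction between transfections and the 6 largest called per direction between lines, except where an RNA passed the filter through 1 line only. List genes come from the 2 highest and 2 lowest per list and comparison, and small RNA models from the 20 with the highest means. SNORA13, MIR4458, SNORA17A and the values of genes sharing exon bases were named outside that rule. Alternatives covered the pseudocount, the filter, the scaling, the prior and the model terms.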

Additional observations from a re-analysis of the deposited data

Results flagged for a closer look

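Differences between the lines in the response to the transfection stood out for 1 of the 34 RNAs and 1 small RNA model, where si-FENDRR minus si-NC had opposite signs in the 2 lines, at least 1.5-fold in FPKM + 1 in one of them and at least 0.2 on the log2 scale in the other. With 1 library per line and transfection, the difference between the lines was not tested. MALAT1 had a log2 difference of 0.74 in LM3, at 108 FPKM under si-FENDRR and 64.3 FPKM under si-NC, and of -0.22 in RBE, at 28.8 and 33.7 FPKM. SNORA71A, inside an intron of SNHG17, had a log2 difference of -0.92 in LM3, at 2.03 FPKM under si-FENDRR and 4.75 FPKM under si-NC, and of 0.64 in RBE, at 2.88 and 1.495 FPKM. Its host SNHG17 was at 12.1 and 13.99 FPKM in LM3 and, in RBE, 12.7 and 13.7 FPKM.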

How the results depend on the processing

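Among the 34 RNAs, 0 were called between the transfections by limma under all 8 alternatives, including the fit with no replicate block, that is with no cell line term, which also called 0. The 6 RNAs given with a test kept their sign under all 8, with adjusted p-values from 0.645 to 0.99998. Between the lines, 17 to 20 were called over 8 alternatives, and 16 of the 19 were called under every one. These counts hold RNAs that entered through 1 line only, so they are a description. NORAD was also called with median-of-ratios scaling (adjusted p = 0.0363 by limma) and, with TUG1, with no transfection term. The 12 RNAs with the largest line differences on the log2(FPKM + 1) scale, 6 per direction, included UCA1, CCAT1 and HOTTIP. Those entered through 1 line only, so no test is given for them. The other RNAs of the 12 had adjusted p-values by limma from 0.000219 for SNHG5 to 0.0474 for MALAT1. The log2 difference of UCA1 ran from -4.57 to -0.99 and that of MIR4458HG between transfections from 0.56 to 1.93. EPB41L4A-AS1 was not called with no transfection term (adjusted p = 0.204 by limma), nor LINC01021 with no filter on low values. HOTTIP and LINC01021 were not tested with a mean FPKM of at least 1. With a pseudocount of 0.1, 2 of the RNAs differed at least 2-fold in LM3, EPB41L4A-AS1 joining MIR4458HG. With a pseudocount of 5, 0 did so in LM3 and 0 in RBE. Counts higher in both lines ran from 5 to 8 and lower in both from 6 to 7 over 3 alternatives. Scaling moved the median log2 difference of all genes by under 0.1. Leaving out a library leaves no residual degree of freedom, so it gives the single-line values and no test. Depth is unknown, so levels under 1 FPKM limit the smaller RNAs most.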

Other observations

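Of 23 other tested cancer RNAs outside the 34, 9 were called higher in LM3 and 7 in RBE, where 32.3% and 26.4% of all tested genes were. H19, the imprinted oncofetal RNA, was at 16.6 and 16.1 FPKM in LM3 with si-FENDRR and si-NC, against 0 and 0.0195 FPKM in RBE. MAGI2-AS3 was at 27.9 and 27.3 FPKM in LM3, against 0.203 and 0.153 FPKM in RBE. Most of the RNAs called higher in LM3, H19 and MAGI2-AS3 among them, reached 1 FPKM in LM3 only. Some of those called higher in RBE, PCAT6 among them, did so in RBE only. The filter let these RNAs in where they are high, so the called counts are a description and no test is given for them. HEIH, an RNA described in hepatocellular carcinoma, was called higher in RBE, at 4.56 and 3.84 FPKM in LM3, against 21.0 and 24.3 FPKM in RBE.

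The short models that share a name with a long RNA held little signal. The 75-base UCA1 model was at 0.0336 and 0.0636 FPKM in LM3, against 0.147 and 0.164 FPKM in RBE, and the 95-base MALAT1 model was between 0.157 and 0.219 FPKM in the 4 libraries. The short HULC model was at 0.179 FPKM in RBE with si-FENDRR and listed at 0 in the other libraries.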
